A study of Mus musculus with 20 samples.

Results

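The calcium and magnesium handling genes are the pumps, channels, transporters, sensors and buffers that move these divalent cations across membranes or respond to them. They were listed by symbol as 36 genes, with the medium in view that is used to loosen blastomeres before an embryo biopsy, since that medium lacks both ions. A gene was taken where a probe set carried its symbol alone in the platform annotation, and the probe set with the highest mean over the 20 arrays stood for it. This named 32 of the 36 genes, out of 18194 genes named in the same way on the whole array. Itpr1, Calm2 and Calm3 were not listed with a probe set in the annotation used here, and S100a11 was listed on a probe set with several symbols, so these 4 were not named. The chosen probe sets of 31 of the 32 genes were called Present on at least 3 arrays and were tested, and Orai3 was not.

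The arrays measured RNA of CF1 mouse blastocysts in 20 pools of 20 embryos each, 4 pools in each of 5 groups whose replicates are numbered 2 to 5. The untreated group had no manipulation named in its label. The acid group was exposed to acid Tyrode's solution, which opens the zona pellucida, the CMF group to calcium- and magnesium-free medium (CMF), the CMF_acid group to both, and the biopsy group to the full procedure, in which both exposures were followed by removal of a blastomere. Per the series design text, embryos were treated at the 8-cell stage, cultured singly in drops of complete medium and collected 96 h after hCG injection, so the RNA was taken well after the exposure and not during it. CMF, CMF_acid and biopsy, 12 arrays, therefore had met the ion-free medium, and untreated and acid, 8 arrays, had not. The labels give the sex as female for 19 of the 20 pools and none for CMF replicate 2, without saying whether this describes the embryos. Nothing in the labels says that replicate pools came from separate collections, so p-values measure the spread between these pools, which may be technical. In pooled RNA, fewer cells of a type and less RNA per cell cannot be told apart.

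Free calcium in the cytosol is kept low by pumps of the endoplasmic reticulum (ER), the Golgi and the plasma membrane, and it rises when inositol trisphosphate receptors open or when STIM sensors of the ER couple to ORAI channels of the plasma membrane. Calmodulin and most S100 proteins bind the ion and pass the signal on, among others to the calmodulin-dependent kinase CaMKII. Magnesium enters through TRPM6 and TRPM7, reaches mitochondria through MRS2 and is moved by the SLC41 and CNNM families. Extracellular calcium also holds cadherins together, and the compaction of the mouse 8-cell embryo, in which blastomeres flatten onto each other, depends on it.

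Between 44.3% and 50.9% of probe sets were called Present per array. CMF_acid replicate 5 stood apart: its mean correlation with the other arrays was 0.985, against at least 0.994 for each of them, its 3'/5' ratio of actin was 4.22, against 1.51 to 3.06, and it had the lowest share of Present calls, against at least 47.9% in the others. Its part in the results was not tested beyond leaving it out, and results that rest on it are given with and without it unless stated. Markers of the inner cell mass (Pou5f1, Nanog, Sox2, Dppa5a), the trophectoderm (Cdx2, Krt8, Krt18, Gata3, Eomes) and the primitive endoderm (Gata6, Dab2, Pdgfra, Sox17) were called Present on all 20 arrays. Among markers of cumulus and granulosa cells, Fshr, Inha, Has2 and Ptgs2 were Present on 0 of 20 arrays, Foxl2 on 8 at a mean log2 intensity of 2.40, and Amhr2 on 20 at 9.45.

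Most of the calcium and magnesium handling genes were detected in every pool. Of the 32, 27 were called Present on all 20 arrays, 4 on some and 1 on none. Cnnm4, a transporter linked to magnesium efflux, was Present on 19 arrays and lacked the call only in CMF_acid replicate 5. Cnnm1 and the plasma membrane calcium pump Atp2b4 were Present on 11 arrays each. Cnnm1 had the call on 6 of the 8 unexposed and 5 of the 12 exposed arrays, and Atp2b4 on 3 of 8 and 8 of 12. The inositol trisphosphate receptor Itpr2 was Present on 4 arrays, 2 of them exposed. Orai3, one of the plasma membrane channels of store-operated entry, was Present on 0 of 20 arrays and read between 2.09 and 2.17 on the log2 scale of the deposited GC-RMA intensities. Cnnm1, Slc41a3, Atp2b4, Itpr2, Orai2 and Orai3 had mean log2 intensities under 3.86, the 95th percentile of the 16396 probe sets never called Present. Differences of these 6 are therefore differences close to the background of the array.

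No tested gene passed the test for a difference between embryos that had met the ion-free medium and those that had not. With limma across all 25553 tested probe sets, 0 of the 31 genes passed an adjusted p of 0.05 (0% of all tested probe sets did), the lowest adjusted p was 0.997, and 0 of 31 had an unadjusted p under 0.05, against 1.87% of all tested probe sets. The last count was 1 without untreated replicate 3 (Magt1, 2.19% of all tested). It was also 1 with the replicate number added to the fit, a replicate block (Camk2n2, 3.31%). Unless the block is named, p-values and intervals of the treatment comparisons come from group means alone. Differences between replicate numbers then stayed in the error, and intervals with the block are not given here. The differences, exposed minus unexposed in log2 units, where 1 is a doubling, ran from −0.14 to 0.17 with a median of 0.02. The median over all tested probe sets was 0.01. Of the 31 genes, 18 were higher and 13 lower in the exposed groups, and for 0 of them did the exposed arrays all lie on one side of the unexposed arrays, as for 0% of tested probe sets in either direction. The 95% interval of the difference lay within 0.5 log2 units of zero for 29 of the 31 genes. The exceptions were the mitochondrial magnesium channel Mrs2, whose interval reached down to −0.51, and S100a6, which encodes a calcium-binding protein and whose interval reached up to 0.58. The lowest value of Mrs2, 7.44, was that of CMF_acid replicate 5, and its interval without that array is not given here. The 29 include Cnnm1, Slc41a3, Atp2b4, Itpr2 and Orai2, which lay close to the background of the array, so their intervals say little about a change in RNA. In simulated data with the same groups, 100 of the 25553 probe sets were given a difference of 0.5 and 100 a difference of 1. This test recovered 78% and 97% of them, with 15 false calls. Recovery depends on how many probe sets change, so these shares are not the chance of finding 1 changed gene among the 31. That simulation held no differences between replicate numbers and no array that stood apart as CMF_acid replicate 5 did.

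**Figure D1:**
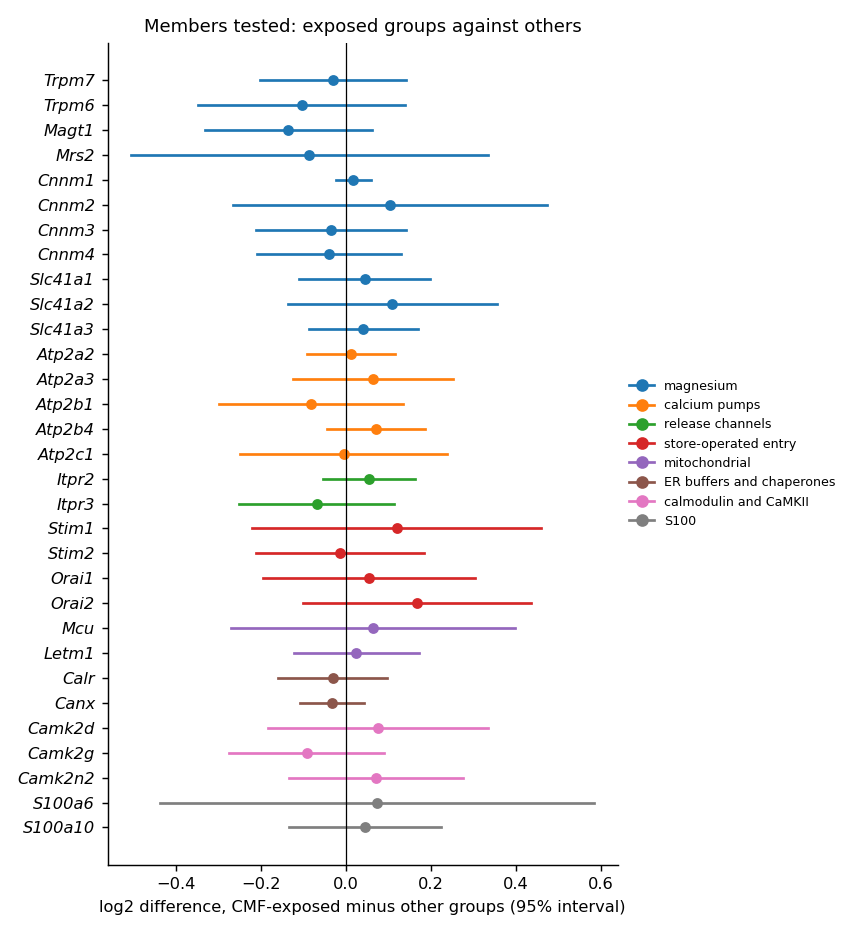
Difference between the groups exposed to calcium- and magnesium-free medium and the others for the 31 tested genes, in log2 units on the horizontal axis, coloured by role. Points are estimates over 12 and 8 arrays and lines their 95% intervals, which all cross zero.

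The magnesium transporters made up 11 of the tested genes, 5 higher and 6 lower in the exposed groups, with differences from −0.14 to 0.11. Magt1, which is a subunit of the oligosaccharyltransferase complex of the ER and has also been described as a magnesium transporter, had the lowest p of all 31 genes. Its log2 intensity was 12.44, 11.90, 12.39 and 12.31 in untreated replicates 2 to 5, and 12.38, 12.05, 12.37 and 12.24 in acid. In CMF it read 12.26, 11.91, 12.09 and 12.24, in CMF_acid 12.26, 12.03, 12.28 and 11.61, and in biopsy 12.26, 12.16, 12.06 and 12.33. The exposed arrays spanned 11.61 to 12.33 and the unexposed arrays 11.90 to 12.44, and the lowest of all was CMF_acid replicate 5. The difference was −0.14 ± 0.09 (SE; limma, unadjusted p = 0.164, adjusted p = 0.997), and −0.09 without that array.

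The solute carrier Slc41a2 had a difference of 0.11 ± 0.12 (SE; unadjusted p = 0.358, limma), which was 0.05 without CMF_acid replicate 5, the array with its highest value of 6.46. The other 19 arrays ran from 5.06 to 6.22. The channel kinase of magnesium entry Trpm7 ran from 12.86 to 13.34 in the exposed and 12.85 to 13.44 in the unexposed arrays, with the same median of 13.13 in both. Its relative Trpm6 had medians of 9.69 exposed and 9.73 unexposed. Mrs2 had a median of 9.02 in both sets, and its lowest array, at 7.44, was CMF_acid replicate 5, while the other exposed arrays ran from 8.77 to 9.48. For the CNNM family, named after cyclins and linked to magnesium transport, the exposed and unexposed medians were 8.05 and 7.97 for Cnnm2, 7.42 and 7.44 for Cnnm3, and 6.91 and 6.97 for Cnnm4. Cnnm1 read between 2.18 and 2.30 on every array, with a difference of 0.02 ± 0.02 (SE; unadjusted p = 0.367, limma). Slc41a1, a sodium-dependent magnesium exporter in human cells, had medians of 6.69 exposed and 6.67 unexposed, and Slc41a3 of 3.54 and 3.56.

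The calcium pumps gave 3 higher and 2 lower genes among 5, from −0.08 to 0.07. Atp2a2 encodes SERCA2, the pump that fills the ER store in most cells, and it was measured with the least spread of the pumps that were Present throughout: from 14.53 to 14.80 with a median of 14.65 in the exposed arrays, and from 14.48 to 14.79 with a median of 14.69 in the unexposed arrays. Its relative Atp2a3 had medians of 8.63 and 8.61, the plasma membrane pump Atp2b1 of 11.77 and 11.83, and the Golgi pump Atp2c1, which also carries manganese, of 9.81 in both. The difference for Atp2b4 was 0.07 ± 0.05 (SE; unadjusted p = 0.214, limma). Atp2b4 read 3.79 in CMF_acid replicate 5 and between 3.18 and 3.35 on the other arrays, and without that array the difference was 0.03.

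For release and store-operated entry, 4 of 6 genes were higher and 2 lower. The release channels Itpr2 and Itpr3 had exposed medians of 3.55 and 9.28 and unexposed medians of 3.54 and 9.33, and the difference for Itpr2 was 0.05 ± 0.05 (SE; unadjusted p = 0.304, limma). The ER sensors Stim1 and Stim2 had exposed medians of 6.58 and 8.23 and unexposed medians of 6.55 and 8.18, and the channel Orai1 of 7.84 and 7.80. Orai2 had the largest difference of the 31, 0.17 ± 0.13 (SE; unadjusted p = 0.206, limma). That value came from CMF replicate 4 at 3.42 and biopsy replicate 2 at 3.68, while the other 18 arrays read between 2.42 and 2.76. With the signal of the array software in place of GC-RMA the sign turned, to −0.091.

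In the ER, the lectin chaperones Calr (calreticulin, also the main calcium buffer of the ER lumen) and Canx (calnexin) both differed by −0.03. Calr had medians of 15.22 exposed and 15.30 unexposed. Canx had 14.47 and 14.53, and its difference of −0.03 ± 0.04 (SE; unadjusted p = 0.379, limma) became 0.0020 with the software signal. Mitochondria were represented by Mcu, the pore of the calcium uniporter, with medians of 8.35 exposed and 8.22 unexposed, and by Letm1, a cation exchanger of the inner membrane, with 10.81 and 10.75.

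Among the S100 genes, S100a10, whose protein binds annexin A2 and, unlike most of its family, does not bind calcium, had medians of 13.38 exposed and 13.32 unexposed, and S100a6 had 6.85 and 6.86. S100a6 ran from 6.09 to 8.03 and had the largest SD of the 31 genes over the 20 arrays, 0.51. The kinase subunits Camk2d and Camk2g had exposed medians of 8.69 and 9.79 and unexposed medians of 8.63 and 9.80, and Camk2n2, which encodes an inhibitor of CaMKII, 8.04 and 8.00. Camk2g differed by −0.09 ± 0.09 (SE; unadjusted p = 0.301, limma). All of its arrays lay between 9.68 and 9.94 except CMF_acid replicate 5 at 8.93, and without that array the difference was −0.02.

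**Figure D2:**
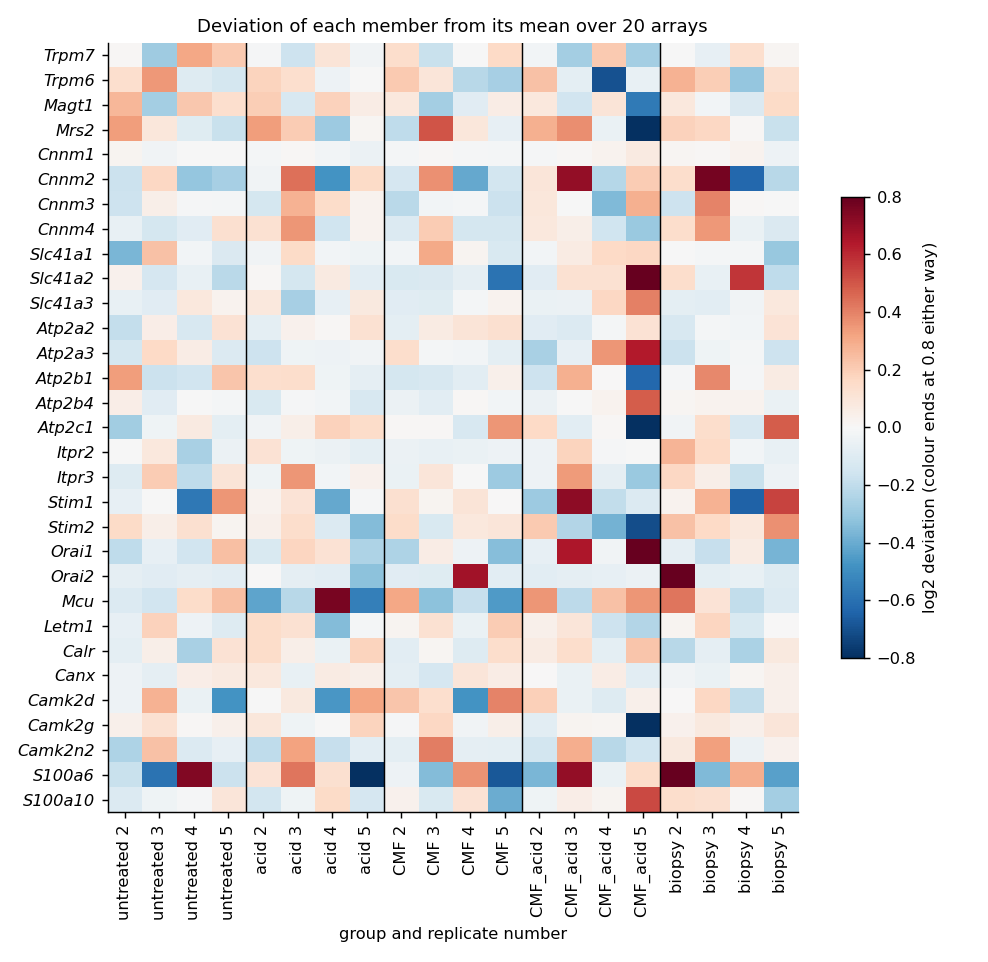
Deviation of each of the 31 tested genes from its own mean over the 20 arrays, in log2 units, with genes as rows and arrays as columns by group and replicate number. Colours end at 0.8 in either direction, and the column of CMF_acid replicate 5 holds the highest or lowest value of 16 genes.

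CMF_acid replicate 5 held 8 of the 31 highest and 8 of the 31 lowest values. The array with the next most extremes, acid replicate 5, held 6 of the 62.

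The comparisons of single groups ask what each step adds. For the ion-free medium alone, CMF against untreated, 0 of 31 genes passed the adjusted threshold (0% of all tested) and 0 had an unadjusted p under 0.05 (1.01% of all tested), with 13 higher and 18 lower. The 3 lowest p-values were those of Atp2a2 with 0.09 ± 0.08, Slc41a1 with 0.11 ± 0.11 and Magt1 with −0.14 ± 0.14 (log2 difference ± SE). Over both acid states, CMF and CMF_acid against untreated and acid, 0 of 31 again passed either threshold (0% and 1.74% of all tested). Magt1 with −0.17 ± 0.10, Camk2g with −0.14 ± 0.09 and Atp2b4 with 0.08 ± 0.06 had the lowest p, and without CMF_acid replicate 5 the differences were −0.10, −0.04 and 0.02. In this comparison, 2 genes had an unadjusted p under 0.05 without CMF_acid replicate 2 (Atp2a3 and Stim2, 4.25% of all tested). It was 1 gene without untreated replicate 3 (Magt1, 2.44%) and 1 without CMF_acid replicate 3 (Atp2b1, 2.75%).

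Adding the medium to acid, CMF_acid against acid, gave 0 of 31 adjusted calls (0% of all tested) and 1 gene with an unadjusted p under 0.05 (6.9% of all tested). That gene was Atp2b4 with 0.19 ± 0.08 (SE; limma, unadjusted p = 0.0410, adjusted p = 0.608), which was 0.06 without CMF_acid replicate 5. Camk2g with −0.28 ± 0.13 and Orai1 with 0.37 ± 0.18 followed, and were −0.07 and 0.20 without it. The number of genes with an unadjusted p under 0.05 moved with single arrays: it was 0 without CMF_acid replicate 5 (2.68% of all tested), 7 without CMF_acid replicate 2 (17%), 4 without CMF_acid replicate 3 (10.9%) and 3 without CMF_acid replicate 4 (9.12%). It was 0 without acid replicate 2 or 5 (3.49% and 4.23%) and 2 without acid replicate 3 or 4 (6.69% and 6.48%).

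Removal of a blastomere after both exposures, biopsy against CMF_acid, gave 0 of 31 adjusted calls (0% of all tested). An unadjusted p under 0.05 was reached by 4 genes, 12.9% of the 31 against 7.36% of all tested. Stim2 had the lowest p. The STIM2 protein senses small drops of calcium in the ER, and its gene read 8.38, 8.30, 8.22 and 8.50 in biopsy replicates 2 to 5 against 8.35, 7.90, 7.76 and 7.43 in CMF_acid. The untreated arrays read 8.29, 8.19, 8.27 and 8.16, acid 8.18, 8.28, 8.03 and 7.79, and CMF 8.29, 8.02, 8.23 and 8.24. The biopsy and CMF_acid arrays overlapped through CMF_acid replicate 2, and the biopsy and untreated arrays overlapped too. The difference was 0.49 ± 0.14 (SE; limma, unadjusted p = 0.00358, adjusted p = 0.617), and 0.35 without CMF_acid replicate 5. Stim2 was also the 1 gene of the 31 with an unadjusted p under 0.05 in the F test over all 5 groups (F = 3.30, unadjusted p = 0.0365, adjusted p = 0.974; 1.81% of all tested had such a p, and 0% an adjusted one). Without CMF_acid replicate 5 its F was 2.38 and 0 genes had such a p (2.18% of all tested). For Stim2 this p was also lost without untreated 2 or 4, CMF_acid 3 or 4, or biopsy 2, 3 or 5, and with the software signal. Other genes reached it in some settings. Without CMF_acid replicate 2, Atp2a3, Orai1 and Stim2 did (5.16% of all tested), and without CMF_acid replicate 4, Orai1 did (2.79%). With a gene's probe sets averaged, Orai1 and Stim2 did (1.79%).

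Orai1, the channel that STIM proteins open, lay the other way. It read 7.82, 7.71, 7.96 and 7.52 in biopsy and 7.83, 8.54, 7.86 and 8.74 in CMF_acid, where replicates 3 and 5 were higher than all other arrays of the study. The difference was −0.49 ± 0.18 (SE; limma, unadjusted p = 0.0164, adjusted p = 0.617), and −0.32 without CMF_acid replicate 5. Calr read 15.03, 15.18, 15.00 and 15.33 in biopsy against 15.32, 15.39, 15.17 and 15.47 in CMF_acid, a difference of −0.20 ± 0.09 (SE; unadjusted p = 0.0454), or −0.16 without that array. Camk2g, named here after its value was seen, was the fourth, with biopsy arrays from 9.80 to 9.86 above CMF_acid arrays from 8.93 to 9.79. Without CMF_acid replicate 5, Stim2 alone of the 31 kept an unadjusted p under 0.05 in this comparison, and the share of all tested probe sets fell to 2.89%. Leaving out any other single array gave 2 to 5 genes, while the share of all tested probe sets ran from 4.71% to 16%. The 5 genes came without CMF_acid replicate 2, where that share was 16%.

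**Figure D3:**
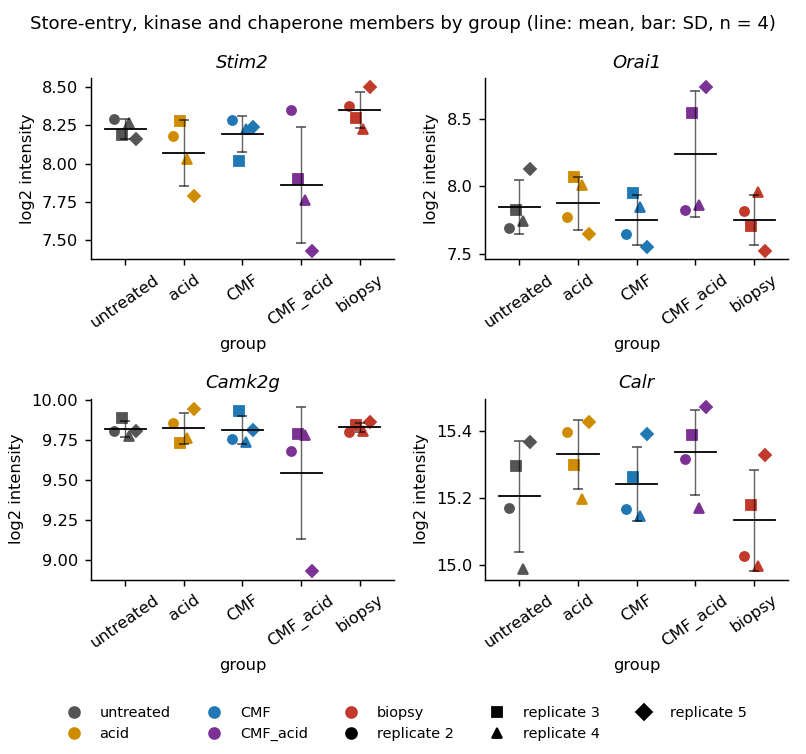
Log2 intensity of Stim2, Orai1, Camk2g and Calr by group, 1 point per pooled sample with the marker showing its replicate number, a line at the mean and a bar of 1 SD (n = 4). Stim2 in CMF_acid spreads from 7.43 to 8.35, and CMF_acid replicate 5 is the lowest point of Camk2g at 8.93.

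Whether the effect of the medium differed with acid was asked by the interaction of both exposures. Of the 31 genes, 0 passed the adjusted threshold (0% of all tested) and 0 an unadjusted p of 0.05 (3.4% of all tested). Orai1 with 0.46 ± 0.26, Atp2b4 with 0.21 ± 0.12 and Atp2c1 with −0.42 ± 0.25 had the lowest p, and without CMF_acid replicate 5 these were 0.30, 0.09 and −0.20. Without CMF_acid replicate 2, 4 genes had an unadjusted p under 0.05 (9.75% of all tested), and without CMF_acid replicate 4 or acid replicate 4, 1 gene did (4.34% and 3.95%).

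The replicate number, which the labels give as 2 to 5 in every group without saying what it marks, was the only factor with calls among these genes. In a limma fit of group plus replicate number, 5 of the 31 genes passed an adjusted p of 0.05, which is 16.1% against 4.13% of all tested probe sets, and 13 had an unadjusted p under 0.05, which is 41.9% against 21.1%. These shares depended on the summary of the probes: with a gene's probe sets averaged, 3 genes passed (7.08% of all genes tested) and 8 had an unadjusted p under 0.05 (25.6%), and with the software signal 1 passed (0.959% of all tested) and 5 had such a p (18.5%). With array weights 10 passed (13.4% of all tested). The 5 were Camk2n2, Cnnm2, Calr, Atp2a2 and Trpm6. Over the 31 genes, the replicate number held a median of 33.7% of the sum of squares over the arrays and the treatment group 16.5%, against 19.7% and 19.5% over all tested probe sets. These are raw shares that hold noise too, more for the group, which has more levels, so they are not the variation a factor explains. The 31 are also 1 probe set per gene, chosen for the highest mean. All tested probe sets include further, weaker ones of the same genes. Whether this choice raised the shares of the 31 was not tested. Stim2 and Orai1 had the largest shares for the group, 45.3% and 37.7%.

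**Figure D4:**
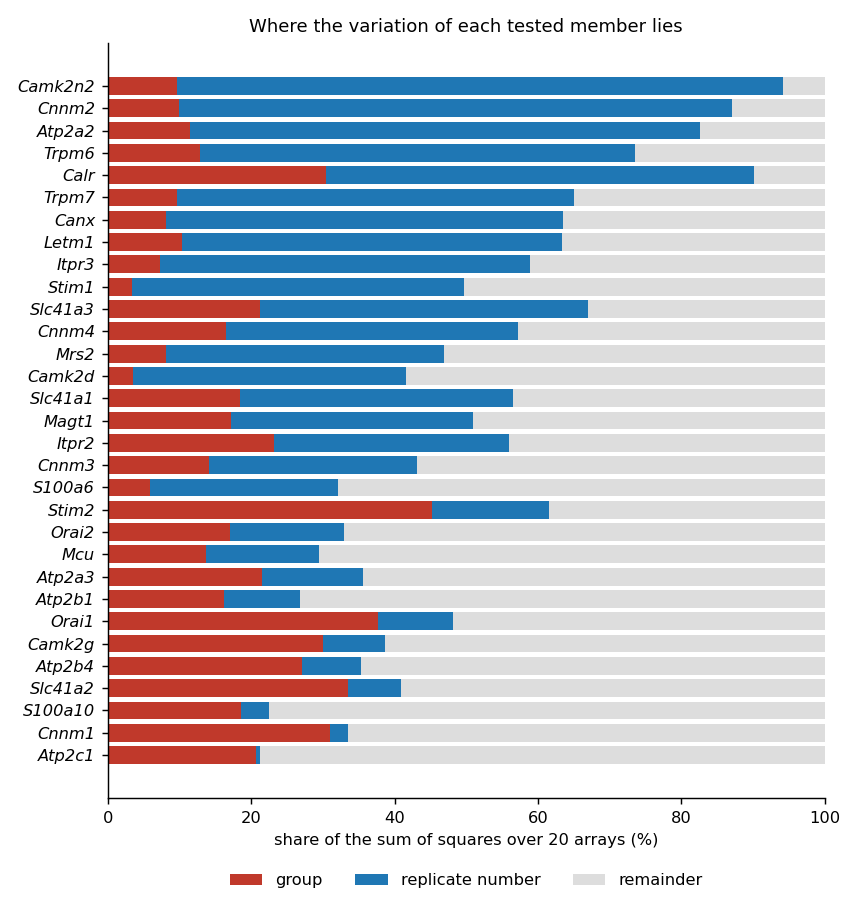
Share of the sum of squares over the 20 arrays that lies between the 5 groups, between the 4 replicate numbers and in the remainder, in percent, for the 31 tested genes sorted by the share of the replicate number. The bars of the replicate number run from 0.603% for Atp2c1 to 84.6% for Camk2n2.

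Camk2n2 had the strongest relation to the replicate number (F = 47.0, adjusted p = 0.00133, limma). It read 8.34 in untreated, 8.42 in acid, 8.51 in CMF, 8.39 in CMF_acid and 8.43 in biopsy for replicate 3, and between 7.85 and 8.18 on the 15 arrays of replicates 2, 4 and 5. All 5 arrays of replicate 3 thus lay above all others, a pattern that 0.38% of tested probe sets had. That replicate and direction were picked after the values were seen, so this share understates how often some such pattern occurs. For replicates 2, 4 and 5 the shares above all others were 0.227%, 0.106% and 0.0665%. Shares below all others ran from 0.0509% to 0.125% over the replicate numbers. The call held without each array in turn (adjusted p up to 0.00505) but not with the software signal, where the means of replicates 2 to 5 were 6.83, 7.04, 6.86 and 6.94 and the adjusted p was 0.729. The 300 bases around its start, shown because this gene led the list, are on the minus strand of mouse chromosome 16 (chr16:20621229-20621528, GRCm38.p6, RefSeq). Capitals mark the GC box GGGCGG, the motif of SP1-type factors, read on both strands. It was found 6 times here, and 35.7% of the 32851 promoters of the same length hold it.
Camk2n2: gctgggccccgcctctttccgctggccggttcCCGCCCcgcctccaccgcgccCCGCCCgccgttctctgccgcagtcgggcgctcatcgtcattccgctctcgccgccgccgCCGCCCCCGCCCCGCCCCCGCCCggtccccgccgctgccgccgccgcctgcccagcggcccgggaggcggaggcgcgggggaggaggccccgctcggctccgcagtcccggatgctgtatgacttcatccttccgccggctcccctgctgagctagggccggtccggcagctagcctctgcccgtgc

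Cnnm2, a magnesium transporter or sensor of the basolateral membrane in kidney, followed (F = 25.6, adjusted p = 0.00414, limma). Its replicate 3 arrays read 8.23 in untreated, 8.51 in acid, 8.43 in CMF, 8.77 in CMF_acid and 8.83 in biopsy, and its replicate 4 arrays 7.76, 7.59, 7.66, 7.84 and 7.44 in the same order. The replicate means were 8.05, 8.55, 7.66 and 8.01 for replicates 2 to 5 (SD 0.14, 0.25, 0.15 and 0.22, n = 5). Replicate 3 was high and replicate 4 low in each of the 5 groups. This was the only 1 of the 5 genes that passed with the software signal too (adjusted p = 0.0310), with means of 6.53, 6.85, 6.29 and 6.57 in the same order of replicates. A second probe set of Cnnm2 had an unadjusted p of 0.157.

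Trpm6 (F = 9.78, adjusted p = 0.0360, limma) had replicate means of 9.88, 9.81, 9.39 and 9.60 and was lowest in replicate 4, like Cnnm2. Its call was lost, with adjusted p up to 0.0844, when untreated 3 or 4, acid 2, 3 or 5, CMF 2, 3 or 4, CMF_acid 2, 3 or 4, or biopsy 2, 3 or 4 was left out, and also with no detection filter (0.0587), the software signal (0.123), quantile normalization (0.101) and averaging of its probe sets (0.251). Its other probe set had an unadjusted p of 0.366. Trpm7 did not pass (F = 6.52, adjusted p = 0.0807, limma), with means of 13.15, 12.94, 13.28 and 13.15. It was lowest in replicate 3 and highest in replicate 4, the reverse of Cnnm2, and its adjusted p was 0.0262 without CMF_acid replicate 5. Under the alternatives that kept all arrays, its adjusted p (limma) ran from 0.0190 to 0.614. The 3 other tested probe sets of Trpm7 had unadjusted p of 0.328 to 0.733 (limma).

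Calr (F = 18.2, adjusted p = 0.00830, limma) had replicate means of 15.22, 15.28, 15.10 and 15.40 for replicates 2 to 5 (SD 0.14, 0.08, 0.10 and 0.06, n = 5). Replicate 5 was the highest array of every group and replicate 4 the lowest. All 3 of its probe sets varied with the replicate number, with unadjusted p of 4.93e-05, 1.44e-04 and 4.18e-05, while the software signal gave an adjusted p of 0.372. Canx, its membrane-bound relative, had means of 14.47, 14.41, 14.54 and 14.51 and only an unadjusted p under 0.05, and where Calr was lowest, in replicate 4, Canx had its highest mean. The promoters of these chaperones are shown because they were the 2 of 32 promoters of the listed genes (30 genes matched by symbol in the RefSeq table) with an ER stress element, a motif described for ER chaperone genes. It was searched on both strands as CCAAT, 9 bases of any kind and CCACG, marked in capitals, and 0.119% of the 32851 promoters hold it. Both are on the minus strand of GRCm38.p6, Calr at chr8:84846882-84847181 and Canx at chr11:50325624-50325923. A match describes the sequence and is not a site shown to be bound.
Calr: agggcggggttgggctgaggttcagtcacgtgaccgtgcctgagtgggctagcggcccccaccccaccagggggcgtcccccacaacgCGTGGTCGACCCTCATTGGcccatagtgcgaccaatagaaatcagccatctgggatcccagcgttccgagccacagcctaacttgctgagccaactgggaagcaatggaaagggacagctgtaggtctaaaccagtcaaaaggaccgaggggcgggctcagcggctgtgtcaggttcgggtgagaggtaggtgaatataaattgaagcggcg
Canx: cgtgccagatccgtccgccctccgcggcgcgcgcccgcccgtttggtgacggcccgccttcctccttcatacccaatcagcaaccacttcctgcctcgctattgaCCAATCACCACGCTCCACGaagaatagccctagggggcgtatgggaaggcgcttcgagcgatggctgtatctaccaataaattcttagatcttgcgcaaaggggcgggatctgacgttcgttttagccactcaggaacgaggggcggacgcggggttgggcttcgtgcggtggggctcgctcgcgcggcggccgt

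Atp2a2 (F = 11.8, adjusted p = 0.0246, limma) had replicate means of 14.55, 14.67, 14.65 and 14.78. Its 5 arrays of replicate 5 read from 14.78 to 14.80, with an SD of 0.0080, and lay above all 15 others, which reached 14.77. This pattern was seen for 0.0665% of tested probe sets, and it too was picked after the values were seen. The call was lost, with adjusted p up to 0.0553, without untreated 2, untreated 5, acid 2, CMF 2 or biopsy 2, and with the software signal, where the adjusted p was 0.470. The 4 other tested probe sets of the gene had unadjusted p of 0.106 to 0.656.

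**Figure D5:**
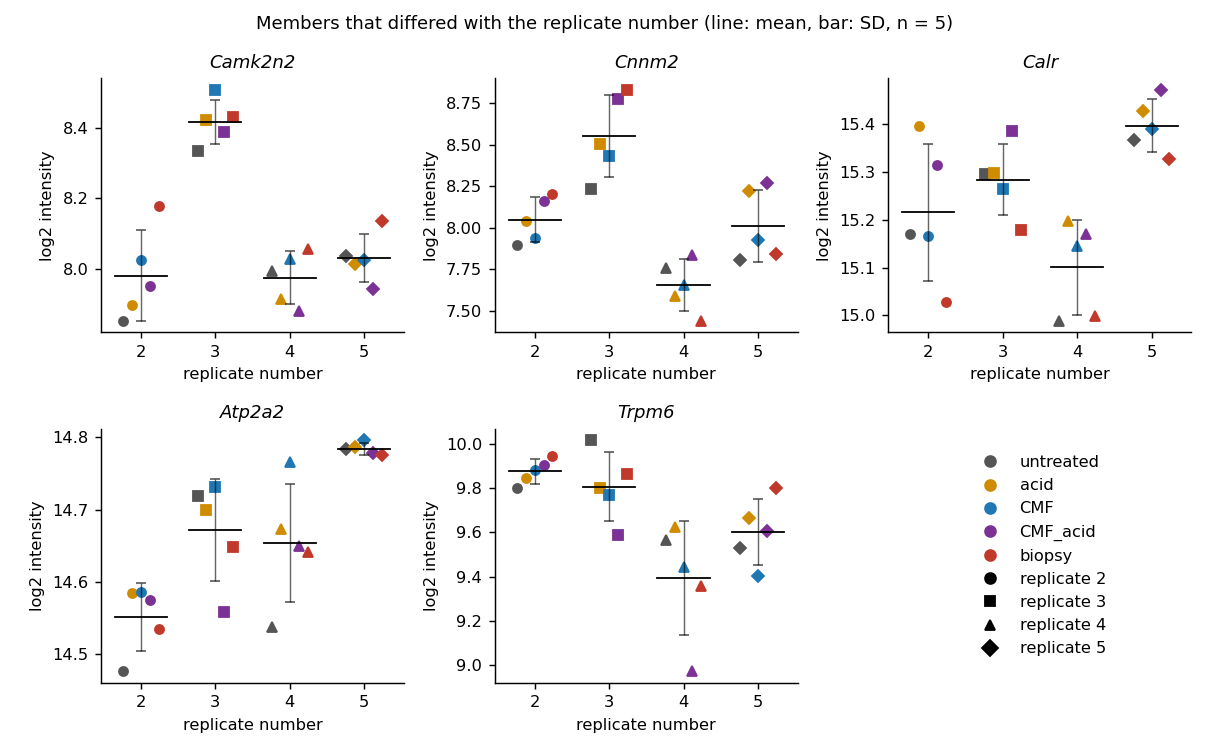
Log2 intensity of the 5 genes that passed the test for the replicate number, by replicate number, 1 point per array coloured by group, with a line at the mean and a bar of 1 SD (n = 5). Camk2n2 and Cnnm2 have their highest means in replicate 3, at 8.42 and 8.55, and Atp2a2 and Calr in replicate 5, at 14.78 and 15.40.

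Without acid 2, CMF 2 or biopsy 2 the number of genes called for the replicate number was 3 (2.25%, 3.05% and 2.83% of all tested), and without CMF_acid replicate 5 it was 8, of 9.37% of all tested probe sets, with Canx, Magt1 and Trpm7 added. Genes with an unadjusted p alone were Canx, Cnnm4, Itpr3, Letm1, Slc41a1, Slc41a3, Stim1 and Trpm7.

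Further probe sets of the same genes did not pass either. Of the 72 tested probe sets that name a listed gene, 0 had an unadjusted p under 0.05 for exposed against unexposed, and the lowest was 0.124. For 21 genes with 41 further tested probe sets, 28 of the 41 had the sign of the chosen one, and for 12 of the 21 genes all of them did.

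A wider list of 101 related genes, of which 93 were named and 66 tested, was read beside them. It held further magnesium carriers, pumps, exchangers, release and plasma membrane channels, mitochondrial and ER proteins, calmodulin effectors, S100 proteins and annexins. For exposed against unexposed, 0 of 66 passed the adjusted threshold (0% of all tested) and 2, or 3.03%, had an unadjusted p under 0.05 (1.87% of all tested), both higher. In all, 22 were higher and 44 lower with a median of −0.02, while 55.4% of all tested probe sets were higher. They were Trpm4, a sodium channel opened by calcium, with 0.21 ± 0.09 (SE; unadjusted p = 0.0428, limma), and Nipal2, of the NIPA-like family, with 0.11 ± 0.05 (SE; unadjusted p = 0.0495, limma). Nipal2 was called Present on 3 CMF, 1 CMF_acid and 1 biopsy array and on 0 unexposed arrays, so it entered the test only through the groups in which it was higher, and its p supports nothing. The next were Ppp3ca, a catalytic subunit of calcineurin, with 0.14 ± 0.08, the channel Trpc6 with 0.14 ± 0.08, the phospholipase Plcg1 with −0.11 ± 0.07, and Nfatc4, a transcription factor that calcineurin activates, with −0.13 ± 0.09. Trpc6 likewise was Present only on exposed arrays, 2 of CMF_acid and 2 of biopsy. For the replicate number, 2 of the 66 passed, 3.03% against 4.13% of all tested. Anxa5, a phospholipid-binding annexin, had replicate means of 8.08, 7.50, 7.51 and 7.73 (adjusted p = 0.0182, limma), and the phospholipase Plcd1 had 9.96, 9.97, 9.65 and 9.53 (adjusted p = 0.0379). The ER chaperones Hspa5 and Hsp90b1, listed beside Calr, had adjusted p of 0.998 and 0.997 for the replicate number (limma). Hspa5 had replicate means of 15.48, 15.48, 15.46 and 15.46 (SD 0.11, 0.05, 0.06 and 0.46, n = 5). For both genes the lowest array was CMF_acid replicate 5, at 14.64 and 13.94, and the highest CMF replicate 5, at 15.74 and 14.81. Their test without CMF_acid replicate 5 is not given here, so whether they vary with the replicate number apart from that array is not shown.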

How the data were processed

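Total RNA was amplified linearly in repeated rounds, which favours 3' ends, and then hybridised to 1-colour Affymetrix arrays, per the labels. The deposited series table holds 1 intensity per probe set and array on a linear scale, made by the authors with GC-RMA, per the submitters' processing notes and, in ArrayAssist Lite 3.4, the design text. GC-RMA corrects background by probe sequence and normalises between arrays. The deposited tables of single arrays hold, per the file headers, the array software's own intensity (signal), its detection p-value and the call drawn from it.

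Of 45101 probe sets, 64 controls were left out and 25553 with a Present call on at least 3 arrays, the filter of the design text, were tested. The annotation lists 35890 probe sets, 34958 with 1 gene symbol and 932 with several, and not the other 9211. Symbols were updated through the gene number for 34754. Log2 intensities were fitted with limma 3.58.1 (lmFit, eBayes) in R 4.3.3, with 5 group means over all 20 arrays, two-sided, with Benjamini-Hochberg adjustment over all tested probe sets. The replicate number was tested as an added term. The fit was tested on simulated data. Errors are SE or SD as stated, and the number of arrays limits the precision.

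Alternatives were no detection filter, a pseudocount of 16, the software signal (pseudocount 1), quantile normalization, array weights, a replicate block, averaging a gene's probe sets, and leaving out each array. Differences with errors are given for the 8 listed genes with the lowest p for exposed against unexposed, 3 in each other comparison, 6 for the replicate number and 6 related genes. The members and lists were chosen with earlier results of these data known.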

Additional observations from a re-analysis of the deposited data

Results flagged for a closer look

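Over 160 sets of 4 arrays (32 genes in 5 groups), 13 held an array far from its 3 neighbours, judged by the gap between them as a share of the range, where chance gives about 1 in 20, or 8. Values are log2 intensities.

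Array CMF_acid replicate 5 accounted for 3 of the 13. It read 3.79 for the pump Atp2b4 (nearest other 3.33), 13.88 for S100a10 (nearest 13.41) and 8.93 for the kinase subunit Camk2g (nearest 9.68). Replicate 3 of the CaMKII inhibitor Camk2n2 stood out within CMF, at 8.51 against 8.03, and within CMF_acid, at 8.39 against 7.95, the same replicate number that was high in all groups.

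The channel gene Orai2 read 3.42 in CMF replicate 4 (nearest 2.67) and 3.68 in biopsy replicate 2 (nearest 2.69). The release channel Itpr2 read 3.76 in CMF_acid replicate 3 (nearest 3.58). Among magnesium carriers, Slc41a1 read 6.85 in acid replicate 3 (nearest 6.68) and 6.40 in biopsy replicate 5 (nearest 6.68), Slc41a2 read 5.06 in CMF replicate 5 (nearest 5.52), and Cnnm4 read 7.19 in CMF replicate 3 (nearest 6.88). The pump Atp2a3 read 8.48 in acid replicate 2 (nearest 8.61).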

How the results depend on the processing

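Counts of called probe sets were 0 for every treatment comparison under the alternatives that kept all arrays. Leaving out 1 array gave 0 to 1 for CMF against untreated, for the interaction and for any difference among groups (1 without untreated replicate 5), and 0 to 1 for CMF_acid against acid (1 without CMF_acid replicate 2 or 4). The count for the replicate number, 1056, was 675 with no detection filter, 245 with the software signal and 3418 with array weights, and 534 (without CMF replicate 3) to 2394 (without CMF_acid replicate 5) when 1 array was left out. At an unadjusted p under 0.05, CMF_acid against acid had 1762 of 25553 probe sets (6.9%), and 15244 of 45037 with no filter (33.8%). The probe sets added there were called Present on fewer than 3 arrays. Exposed against unexposed went from 479 to 800 with array weights. Of 36 named results, 4 changed sign, all for exposed against unexposed with the software signal: Orai2 to −0.091, Itpr2 to −0.013, Cnnm1 to −0.22 and Canx to 0.0020. The cause was not tested. A replicate block left 0 calls in each treatment comparison and gave 846 in place of 479 unadjusted for exposed against unexposed (3.31%), with Camk2n2 among the listed genes. Over all 5 groups it gave an unadjusted p under 0.05 to Calr, Camk2n2 and Stim2 in place of Stim2 alone (3.48% of all tested). Same-numbered arrays deviated together with r from −0.09 to 0.40, median 0.20, over 0.1 in 30 of 40 pairs, and arrays of different numbers with a median of −0.07, over 0.1 in 16 of 120. Samples of 1 number thus shared structure, but not in every pair, and the block was kept as an alternative. For 6 genes near the array background, signal limits any comparison.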

Other observations

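Detection calls and GC-RMA intensities disagreed for 2 of the listed genes. Orai2 and the SLC41 family member Slc41a3 were called Present on all 20 arrays by the array software, while their mean log2 intensities lay under 3.86, where 95% of the probe sets never called Present lie.

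The 5 arrays of replicate 5 gave Atp2a2 log2 intensities with an SD of 0.0080. The software signal of the same probe set on the same arrays had an SD of 0.11 around a mean of 11.88.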
